A study of Homo sapiens with 10 samples.

Results

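The libraries of WM164 melanoma cells treated with 1,25(OH)2D3 were compared with those treated with 1,20(OH)2D3, paired by genotype, to ask what the place of the hydroxyl in the side chain does to gene expression. The 4 libraries concerned are chosen by their labels from 10 in all. Both compounds carry the 1α-hydroxyl on the A ring and differ in the side chain, where the second hydroxyl sits on the carbon that the second number of each name gives. WM164 is a human melanoma line. Cells were grown in charcoal-treated serum and received either compound for 24 h at 100 nM, so doses and times were matched. The groups were cells labelled VDR-KD with 1,25(OH)2D3, VDR-WT with 1,25(OH)2D3, VDR-KD with 1,20(OH)2D3 and VDR-WT with 1,20(OH)2D3, each as 1 library. The labels call the genotypes a knockout of the vitamin D receptor (VDR) and a wild type with scrambled infection, whereas in the paper they are cells with VDR knocked down and mock-transfected cells, and no source used here names more than 1 cell population for either. The submitters mention triplicates, but each condition has 1 library. The p-values therefore reflect only how differences between treatments varied between the genotypes in single libraries. That spread may be technical and also holds any true difference in response between the genotypes. Libraries with 0.1% ethanol are given as the vehicle background and did not enter the main test of the difference. They entered only those alternatives that used all 10 libraries.

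1,25(OH)2D3 is the hormonal form of vitamin D. It binds VDR, which pairs with a retinoid X receptor (RXR) on DNA and changes transcription of its target genes, among them CYP24A1, whose enzyme starts the breakdown of the hormone. 1,20(OH)2D3 belongs to another route of vitamin D activation, which begins with CYP11A1 and whose products are known for having little effect on blood calcium. Melanocytes and melanoma cells express VDR and respond to compounds of both routes.

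The unit is FPKM, fragments scaled to gene length and library size. The sum of FPKM lay between 618675 and 641566 in the 4 libraries, 12977 to 13068 entries reached 1 FPKM, and mitochondrial entries took 7.319% to 8.741%. The read depth is unknown. VDR mRNA was not lower in the cells labelled VDR-KD: with 1,25(OH)2D3 it was 12.1 FPKM in VDR-KD cells against 7.55 FPKM in VDR-WT cells, and with 1,20(OH)2D3 13.2 against 6.75 FPKM. The genotypes are therefore called by their labels only. Melanocyte lineage markers were high, with SOX10 between 137.6 and 175.9 FPKM and PMEL between 4604 and 5200 FPKM. The keratins KRT1, KRT5 and KRT14, and CD3E of T cells, were listed at 0 in all 4 libraries. Not all markers of these lineages were absent. The keratin KRT10 had 5.49 to 11.7 FPKM, and LYZ, a leukocyte marker, had 1.79 to 3.55 FPKM. Of the fibroblast markers, LUM was high (87.7 to 130.3 FPKM) and DCN had 1.62 to 5.46 FPKM, whereas COL1A1, COL1A2 and COL3A1 reached at most 1.24 FPKM.

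Sequence is shown first for PRSS33 and SEMA3B, 2 secreted-protein genes that were higher with 1,25(OH)2D3. It was searched for half-sites, each only 1 part of the DNA site that VDR binds together with RXR. The windows come from RefSeq (GRCh38.p14), run from 250 bases before to 50 after an annotated start, and were taken where the window holds the 5′ end of the gene's entry. The half-sites searched were AGGTCA as the usual form, then AGTTCA as another form, GGGTCA as a further one, and GGTTCA as the last, on both strands, and matches are in capitals. The first window is chr16:2787866-2788165 on the minus strand and the second is chr3:50267402-50267701 on the plus strand.
PRSS33: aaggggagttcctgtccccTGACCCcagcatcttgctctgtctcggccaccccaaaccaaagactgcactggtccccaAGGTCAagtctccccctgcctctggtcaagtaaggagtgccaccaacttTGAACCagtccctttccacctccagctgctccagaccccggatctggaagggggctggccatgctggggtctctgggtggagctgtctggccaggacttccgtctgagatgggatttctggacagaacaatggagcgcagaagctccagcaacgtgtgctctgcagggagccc
SEMA3B: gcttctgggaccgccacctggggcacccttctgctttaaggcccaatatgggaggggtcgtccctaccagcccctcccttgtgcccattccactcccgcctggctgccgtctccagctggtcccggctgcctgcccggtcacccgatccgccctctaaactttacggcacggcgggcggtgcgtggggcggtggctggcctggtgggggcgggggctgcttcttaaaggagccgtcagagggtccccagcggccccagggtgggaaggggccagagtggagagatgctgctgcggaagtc
The PRSS33 window shown held 3 half-sites and the SEMA3B window shown 0. Over all windows of these genes, 2 of 2 held a half-site for PRSS33 and 1 of 5 for SEMA3B. Of the 30 protein-coding genes that differed between the compounds (described below), 25 had at least 1 window, and 11 of these had a half-site in one. CYP24A1 was among the genes without a window. By window, 13 of 38 (34.21%) held a half-site, against 38.59% of all 34943 windows in the table. A match of letters is a description and not a binding site.

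CYP24A1, PRSS33 and PI15 were the marker genes set for this pair of compounds. Because they were set with earlier results of these data known, their p-values are no separate support. All of these genes were higher with 1,25(OH)2D3 than with 1,20(OH)2D3 in both genotypes, but by very different amounts. CYP24A1 (chr20:54153449-54173973), the 24-hydroxylase that inactivates the hormone, had 77.3 FPKM in VDR-KD cells and 56.8 FPKM in VDR-WT cells with 1,25(OH)2D3, against 0.490 and 0.505 FPKM with 1,20(OH)2D3. With ethanol the values were 0.452 and 0.0777 FPKM, so the libraries with 1,20(OH)2D3 lay close to the VDR-KD ethanol library and above the VDR-WT one. The log2 difference was 6.80 (SE 0.543, 95% interval 5.53 to 8.06), or 111-fold on the scale of log2(FPKM + 0.1), with an adjusted p of 0.00483 in limma.

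PRSS33 (chr16:2783953-2787948), a secreted serine protease, had 56.5 FPKM in VDR-KD cells and 67.7 FPKM in VDR-WT cells with 1,25(OH)2D3, against 6.18 and 7.71 FPKM with 1,20(OH)2D3. With ethanol it had 0.887 and 1.37 FPKM. The 3 treatments did not overlap, with the 1,20(OH)2D3 libraries in the middle. The compounds were 3.15 apart on the log2 scale (95% interval 2.69 to 3.60), or 8.85-fold (limma adjusted p = 0.00185).

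In VDR-KD and VDR-WT cells PI15, a peptidase inhibitor, had 115 and 109 FPKM with 1,25(OH)2D3, against 64.6 and 58.2 FPKM with 1,20(OH)2D3 and 17.2 and 19.4 FPKM with ethanol. Again the treatments did not overlap. The difference between the compounds was 0.87 on the log2 scale (95% interval 0.42 to 1.31), and PI15 did not pass the test (limma adjusted p = 0.159). The plot of single libraries shows that the gap between the compounds was widest for CYP24A1 and narrowest for PI15 among the genes that were higher.

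**Figure D1:**
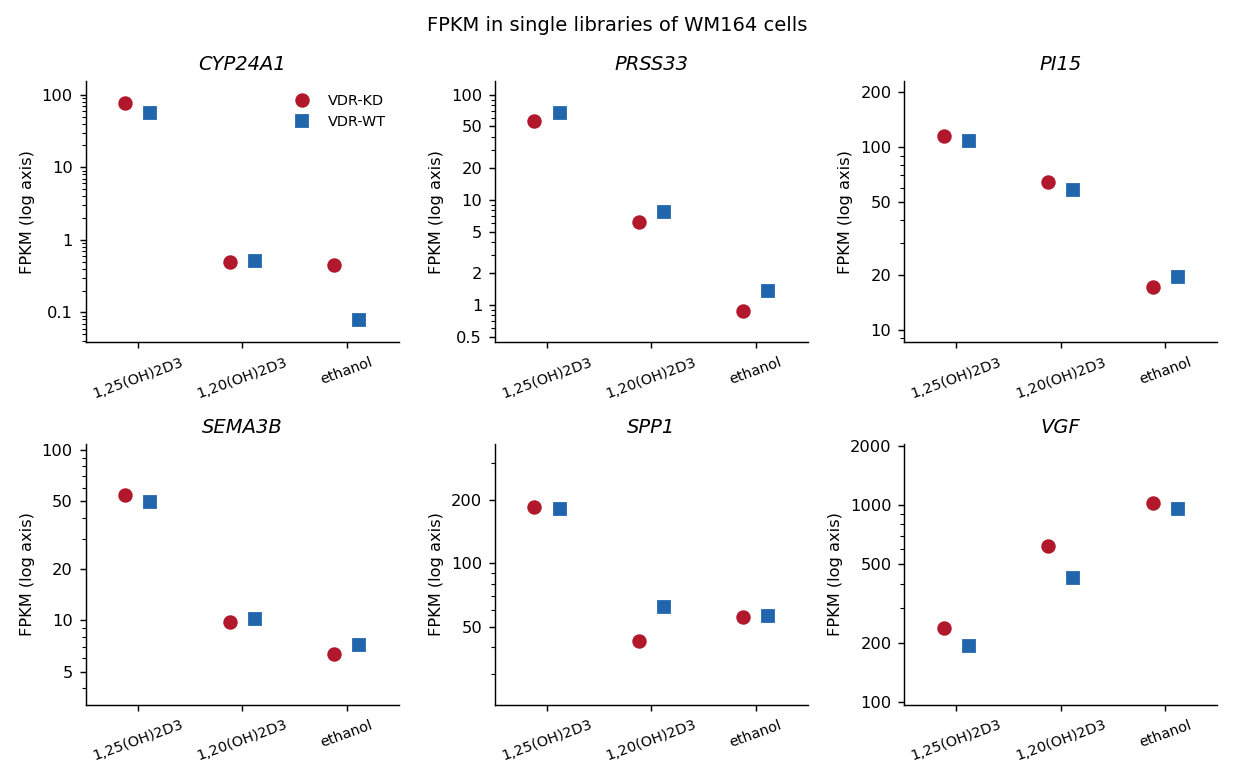
FPKM (log axes) of 6 genes in single libraries with 1,25(OH)2D3, 1,20(OH)2D3 and ethanol; circles are VDR-KD and squares VDR-WT, 1 library each, so there are no error bars. CYP24A1 stood at 77.3 and 56.8 FPKM with 1,25(OH)2D3 and at 0.490 and 0.505 FPKM with 1,20(OH)2D3, whereas VGF was lower with 1,25(OH)2D3.

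Across the table, 13066 of 54826 entries had a mean of at least 1 FPKM in the 4 libraries and were tested. An entry could reach this mean through a single compound, as CYP24A1 did. At an adjusted p under 0.05 in limma, 32 entries were higher with 1,25(OH)2D3 than with 1,20(OH)2D3 (0.245% of those tested) and 5 were lower (0.0383%). Of these, 26 and 4 carried the name of 1 protein-coding gene. The difference rests on 2 libraries a compound, and the 25(OH)D3 and 20(OH)D3 libraries added only to the estimate of the spread (3 residual degrees of freedom). Each of the 4 libraries was needed for these counts: 2 entries were called without VDR-KD 1,25(OH)2D3, 5 without VDR-KD 1,20(OH)2D3, 0 without VDR-WT 1,25(OH)2D3 (876 at an unadjusted p under 0.05) and 1 without VDR-WT 1,20(OH)2D3. Without a trend in the variance limma called 0 entries, with 1292 at an unadjusted p under 0.05. All 37 called entries kept their sign in each of the 16 alternatives, except that 1 fell under the filter of 5 FPKM and was not tested there. The alternatives reuse the same libraries, so a kept sign is no separate support. Only 1 pair of compounds was compared.

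The bulk of the transcriptome was close between the compounds. For 10627 of the 13066 entries (81.33%), and for 8923 of 10114 with 1 protein-coding name (88.22%), the 95% interval of the difference lay within 2-fold in either direction. The median SE was 0.151 on the log2 scale. At an unadjusted p under 0.05, 1385 entries (10.6%) differed. The filter let in DAGLA at a mean of 1.00 FPKM and left out RBKS at 0.996 FPKM.

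Pairs of values below give VDR-KD cells, then VDR-WT cells. SEMA3B (chr3:50267558-50277546), a secreted semaphorin, had 54.4 and 49.8 FPKM with 1,25(OH)2D3, against 9.74 and 10.1 FPKM with 1,20(OH)2D3 and 6.39 and 7.15 FPKM with ethanol. The groups were well apart, by 2.38 on the log2 scale (95% interval 2.01 to 2.74; limma adjusted p = 0.00199). SPP1 (chr4:87975650-87983426), which encodes the secreted phosphoprotein osteopontin, had 185 and 181 FPKM with 1,25(OH)2D3, against 42.7 and 62.2 FPKM with 1,20(OH)2D3 and 55.7 and 56.4 FPKM with ethanol. Here the libraries with 1,20(OH)2D3 lay on both sides of those with ethanol. The difference between the compounds was 1.82 (95% interval 1.49 to 2.16; limma adjusted p = 0.00483), and of the 37 entries SPP1 was the only one still called without VDR-KD 1,20(OH)2D3 and also the only one without VDR-WT 1,20(OH)2D3.

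TIMP3, an inhibitor of metalloproteinases, had the smallest error of the genes that rose. It stood at 545 and 365 FPKM with 1,25(OH)2D3, against 249 and 169 FPKM with 1,20(OH)2D3 and 237 and 151 FPKM with ethanol. VDR-KD was above VDR-WT with each, and the difference between compounds was 1.13 in VDR-KD and 1.11 in VDR-WT (SE 0.068; limma adjusted p = 0.00185). GDF15, a secreted member of the TGF-beta family and a p53 target, had 613 and 429 FPKM with 1,25(OH)2D3, against 234 and 204 FPKM with 1,20(OH)2D3 and 159 and 229 FPKM with ethanol (limma adjusted p = 0.0349). KDR, a receptor for vascular endothelial growth factor, had 22.03 and 8.51 FPKM with 1,25(OH)2D3, against 9.56 and 3.58 FPKM with 1,20(OH)2D3 and 9.57 and 3.58 FPKM with ethanol. Its groups overlapped across genotypes, and within each genotype it differed by 1.20 in VDR-KD and 1.23 in VDR-WT (limma adjusted p = 0.0349). KDR is also an endothelial marker, and the other 4 such markers examined (PECAM1, CDH5, VWF and TEK) reached at most 0.533 FPKM.

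The other protein-coding genes called higher had log2 differences between 0.53 and 2.83, with adjusted p in limma between 0.0127 (CPN1) and 0.0444 (CTSZ). IFNA16 had 28.6 and 23.1 FPKM with 1,25(OH)2D3, against 3.38 and 3.67 FPKM with 1,20(OH)2D3, but it belongs to a family of near-identical interferon genes, between which reads may be divided, so its identity is uncertain. EFL1, a GTPase of ribosome maturation, was 2.80-fold higher, CPN1, the catalytic subunit of carboxypeptidase N, 2.37-fold and the sulfotransferase SULT1C2 2.33-fold. MICAL3, an oxidase acting on actin, was 2.14-fold higher, the endosomal adaptor APPL2 2.02-fold and the nucleotide enzyme GMPR 1.96-fold. Smaller rises were those of the transcription factor IRF4 (1.88-fold), the amino acid transporter SLC7A5 (1.70-fold), the proton pump subunit ATP6V0D2 (1.68-fold), the GTPase RALB (1.60-fold) and the cathepsins CTSL (1.78-fold) and CTSZ (1.45-fold). TCAF1, GDE1 and ST5 were also called higher, at log2 differences of 0.97, 0.86 and 0.71.

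Of the 6 entries without a protein-coding name that were called higher, COX7CP1 and HMGN1P38, chosen after their values were seen, were listed at 0 in both libraries with 1,20(OH)2D3. COX7CP1 had 7.70 and 22.9 FPKM with 1,25(OH)2D3, and with ethanol 12.9 FPKM in VDR-KD and 0 in VDR-WT. HMGN1P38 had 2.42 and 2.47 FPKM with 1,25(OH)2D3, and 2.51 and 3.47 FPKM with ethanol. Both entries passed the filter only through the 1,25(OH)2D3 libraries. These are processed pseudogenes whose reads can be shared with their parent genes, an exact 0 may be a failed estimate, and no fold is given. AL109927.1, likewise chosen after its values were seen, was the only entry without a protein-coding name called lower, with 21.4 and 27.8 FPKM against 60.0 and 63.0 FPKM with 1,20(OH)2D3.

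Few genes were lower with 1,25(OH)2D3. VGF, a secreted neuropeptide precursor first found as induced by nerve growth factor, had 237 FPKM in VDR-KD cells and 194 FPKM in VDR-WT cells with 1,25(OH)2D3, against 622 and 428 FPKM with 1,20(OH)2D3 and 1024 and 959 FPKM with ethanol. The treatments did not overlap, and 1,20(OH)2D3 was again in the middle. The difference was -1.27 (95% interval -1.50 to -1.03; limma adjusted p = 0.00483). TNC, the matrix protein tenascin C, had 91.9 and 35.5 FPKM with 1,25(OH)2D3, against 168 and 77.1 FPKM with 1,20(OH)2D3, and was lower within each genotype although the groups overlapped across genotypes. FRMD6, a membrane-associated protein of the Hippo pathway, was 0.553 times its level with 1,20(OH)2D3, and SAT1, the enzyme that acetylates polyamines, 0.665 times. Their adjusted p in limma was 0.0357 and 0.0350, and that of TNC 0.0350.

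**Figure D2:**
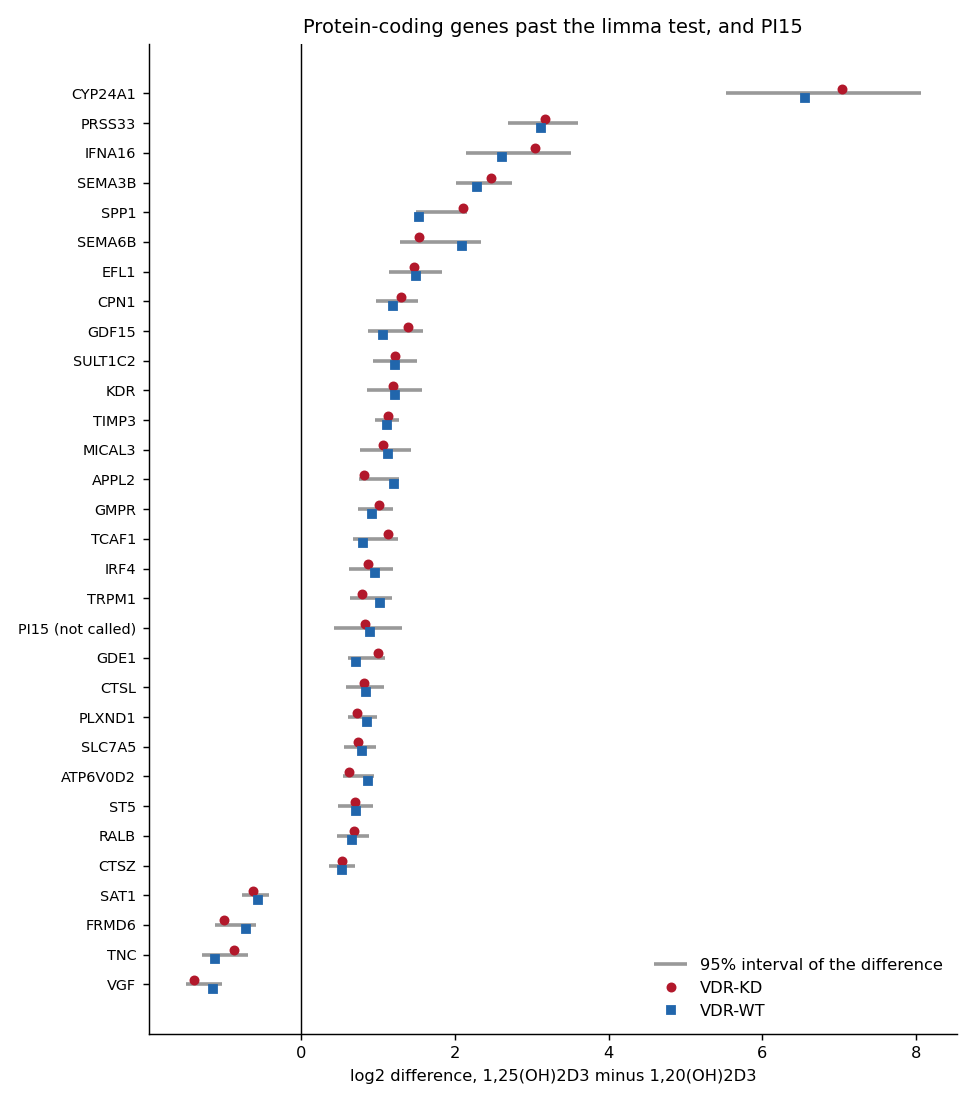
Log2 difference of FPKM + 0.1, 1,25(OH)2D3 minus 1,20(OH)2D3, for the 30 protein-coding genes past the limma test and for PI15; bars are 95% intervals from limma, circles the difference in VDR-KD and squares that in VDR-WT. The circles and squares of a gene lie close together, with a median gap of 0.102 among the 26 genes that were higher and 0.248 among the 4 that were lower.

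The 2 genotypes share no library, so their differences can be set side by side. Over 2-fold in both genotypes, 81 entries were higher with 1,25(OH)2D3 (0.62% of those tested), 35 were lower (0.268%) and 44 went opposite ways (0.337%). Among entries with 1 protein-coding name, 210 were over 2-fold apart in VDR-KD and 211 in VDR-WT. Of these, 44 were higher in both, 7 lower in both and 7 opposite. The 51 that went the same way were 24.29% of those in VDR-KD and 24.17% of those in VDR-WT, so most differences of this size between 2 single libraries were found in 1 genotype. Across protein-coding entries the differences in VDR-KD and VDR-WT had a Pearson r of 0.281, and of 0.404 across the 8039 with a mean of at least 5 FPKM. These are descriptions across genes, which are not independent replicates. Closeness between the genotypes is part of the test, so that of the called genes adds nothing to it.

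**Figure D3:**
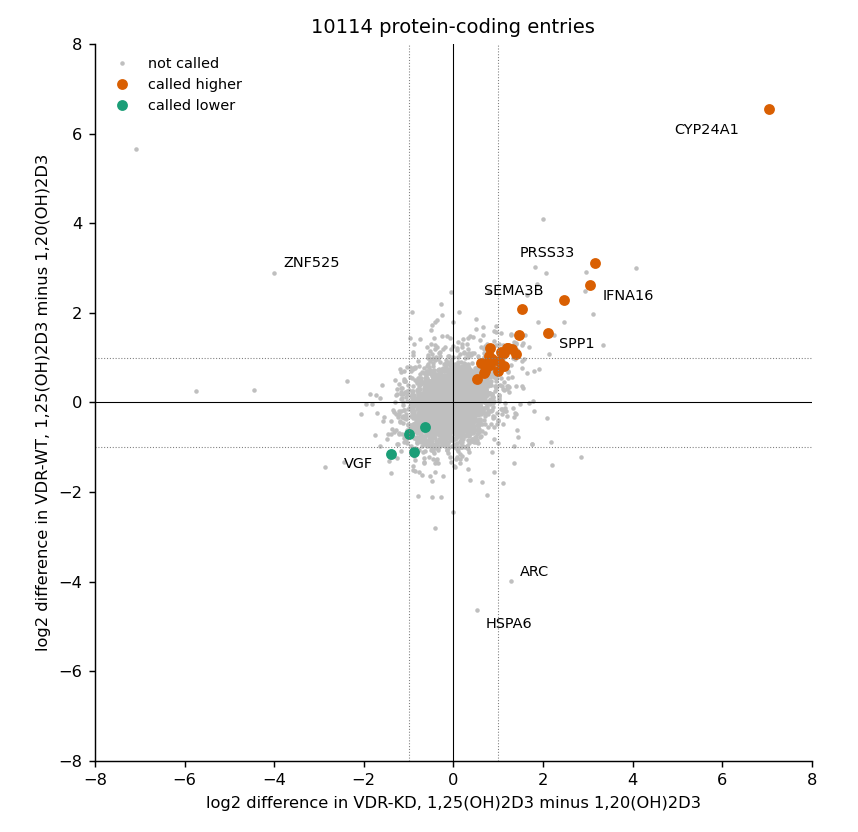
Log2 difference, 1,25(OH)2D3 minus 1,20(OH)2D3, in VDR-KD (x axis) and VDR-WT (y axis) for 10114 entries with 1 protein-coding name, 1 point each; dotted lines mark 2-fold, and genes called higher or lower in limma are in color. CYP24A1 lies far from all others at 7.04 and 6.55, most points lie within 2-fold of 0, and ZNF525, ARC and HSPA6 lie away from the diagonal.

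The called genes belong to several known gene groups, and in each group most members did not pass the test. Over all tested entries 0.245% were called higher and 0.0383% lower. For any size of difference, 28.0% of tested entries were higher with 1,25(OH)2D3 in both genotypes and 30.3% lower in both, and the median of all tested entries was -0.01 on the log2 scale. Of 19 tested VDR targets, CYP24A1, SEMA3B and SPP1 were called higher and none lower, 13 were higher in both genotypes and 3 lower in both, and the median difference was 0.39. Below the threshold were SLC37A2, a sugar phosphate exchanger (25.0 and 14.4 FPKM with 1,25(OH)2D3, against 12.2 and 6.55 FPKM with 1,20(OH)2D3; limma adjusted p = 0.0999), SERPINB1, an inhibitor of neutrophil proteases (34.1 and 32.6 FPKM, against 20.5 and 19.7 FPKM; 0.0531), and NINJ1, an adhesion protein (35.8 and 34.0 FPKM, against 23.2 and 24.0 FPKM; 0.0883). Of the 19 intervals, 11 lay within 2-fold in either direction. Outside that range were also KLK6, a serine protease (log2 difference 1.44, 95% interval 0.08 to 2.79), CAMP, which encodes an antimicrobial peptide (1.15, 0.09 to 2.22), and CLMN (0.72, 0.29 to 1.16), each higher in both genotypes and not called (limma adjusted p = 0.449, 0.44 and 0.226). CYP24A1 and KLK6 averaged 0.498 and 0.605 FPKM with 1,20(OH)2D3. They passed the filter only through the 1,25(OH)2D3 libraries, so the filter favored counting them among the higher members. The smallest differences were those of ATP2B1 and CDKN1A. The cell cycle inhibitor CDKN1A had 3.07 and 2.30 FPKM with 1,25(OH)2D3, against 2.75 and 2.45 FPKM with 1,20(OH)2D3 (log2 difference 0.03, 95% interval -0.54 to 0.61), and the calcium pump ATP2B1 differed by 0.01 (-0.25 to 0.26).

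Of the receptors and enzymes that handle the compounds, CYP24A1 was the only tested one called. Over all entries with 1 protein-coding name, 26 of 10114 were called higher and 4 lower, and 88.22% had intervals within 2-fold. Counts of 0 in lists as short as those below are thus near the overall share. Of 12 listed genes of vitamin D metabolism and uptake with an entry of their own, 7 were tested. In this list 2 genes were at 0 in all 4 libraries. Of 14 tested genes for VDR, its partners and its coregulators, 0 were called in limma, and all 14 intervals lay within 2-fold. VDR itself differed by 0.02 (95% interval -0.50 to 0.54). The largest in size was the coactivator CREBBP, at -0.51 (-0.86 to -0.16; limma adjusted p = 0.308). Among 7 tested genes of vitamin D metabolism, the 25-hydroxylase CYP2R1 had 15.7 and 14.9 FPKM with 1,25(OH)2D3, against 13.9 and 11.03 FPKM with 1,20(OH)2D3, and CYP27A1, another hydroxylase, had 24.7 and 20.4 FPKM, against 24.4 and 17.5 FPKM. Of 8 other receptors proposed to bind hydroxylated vitamin D, 0 were called, and RORA, an orphan nuclear receptor, had the largest difference, 0.80 (0.01 to 1.59; limma adjusted p = 0.468). AHR, the aryl hydrocarbon receptor, differed by 0.04 (-0.28 to 0.36). Of 7 targets of the liver X receptors 0 were called, with a median of -0.25, and FASN, the fatty acid synthase, had 88.5 and 45.9 FPKM, against 127 and 73.3 FPKM with 1,20(OH)2D3 (limma adjusted p = 0.0563).

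Semaphorins and their receptors held 3 called genes of 21 tested, all higher with 1,25(OH)2D3. Over all entries with 1 protein-coding name, 26 of 10114 were called higher. SEMA3B is also counted among the VDR targets above. Beside SEMA3B these were SEMA6B, a transmembrane semaphorin with 11.3 and 9.26 FPKM, against 3.84 and 2.10 FPKM with 1,20(OH)2D3, and PLXND1, a plexin receptor with 134 and 136 FPKM, against 80.3 and 75.0 FPKM. The rest of the list did not follow them. Its median was -0.06, and 0.09 when a mean of 5 FPKM was required. NRP2, a neuropilin coreceptor, had 35.6 and 30.0 FPKM with 1,25(OH)2D3, against 48.8 and 45.4 FPKM with 1,20(OH)2D3 (limma adjusted p = 0.086).

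Melanocyte differentiation genes were mostly close between the compounds. TRPM1, a cation channel of melanocytes, was called higher, with 82.1 and 75.3 FPKM with 1,25(OH)2D3, against 47.4 and 36.9 FPKM with 1,20(OH)2D3 and 25.5 and 27.7 FPKM with ethanol. MITF, the transcription factor of the lineage, had 269 and 284 FPKM, against 205 and 219 FPKM with 1,20(OH)2D3 (limma adjusted p = 0.143). The median of the 15 tested was 0.09, and TYR, the rate-limiting enzyme of melanin synthesis, differed by -0.16 (95% interval -0.35 to 0.02). By contrast, 11 of 18 tested genes of the invasive melanoma state were lower with 1,25(OH)2D3 in both genotypes and 4 higher. Over all tested entries 30.3% were lower in both and 28.0% higher in both. The list had a median of -0.31, and only TNC was called. Among the 4, NT5E and FOSL1 were higher by 0.45 and 0.40 on the log2 scale (limma adjusted p = 0.332 and 0.411). ALCAM, an adhesion molecule, had 14.8 and 10.5 FPKM with 1,25(OH)2D3, against 26.8 and 25.7 FPKM with 1,20(OH)2D3 and 51.5 and 32.9 FPKM with ethanol (limma adjusted p = 0.086). WNT5A had 4.90 FPKM in both genotypes with 1,25(OH)2D3, against 9.06 and 7.37 FPKM with 1,20(OH)2D3 (limma adjusted p = 0.228). VIM, vimentin, had 2395 and 2232 FPKM, against 3198 and 3268 FPKM with 1,20(OH)2D3 (limma adjusted p = 0.0503). With ethanol VIM had 2819 and 2698 FPKM, between the 2 compounds.

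Lists of proliferation and stress genes held a single call or 0. Over all tested entries 0.245% were called higher and 0.0383% lower, so 0 calls in lists this short do not set their genes apart. In limma 0 of 15 mitosis genes and 0 of 14 DNA replication genes were called, with medians of 0.07 and -0.07, and all of their intervals lay within 2-fold. Among 15 p53 targets only GDF15 was called. Of 16 MAPK output genes only VGF was called, and the feedback inhibitor SPRY4 had 9.99 and 15.8 FPKM with 1,25(OH)2D3, against 17.8 and 23.4 FPKM with 1,20(OH)2D3 (limma adjusted p = 0.086). In the list of secreted protease inhibitors TIMP3 was the 1 gene called of 14. Of 20 genes of cholesterol synthesis, 18 of hypoxia and glycolysis, 15 of the unfolded protein response, 13 NRF2 targets, 15 of the interferon response and 9 NF-kB targets, 0 were called, and their medians lay between -0.16 and 0.13.

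**Figure D4:**
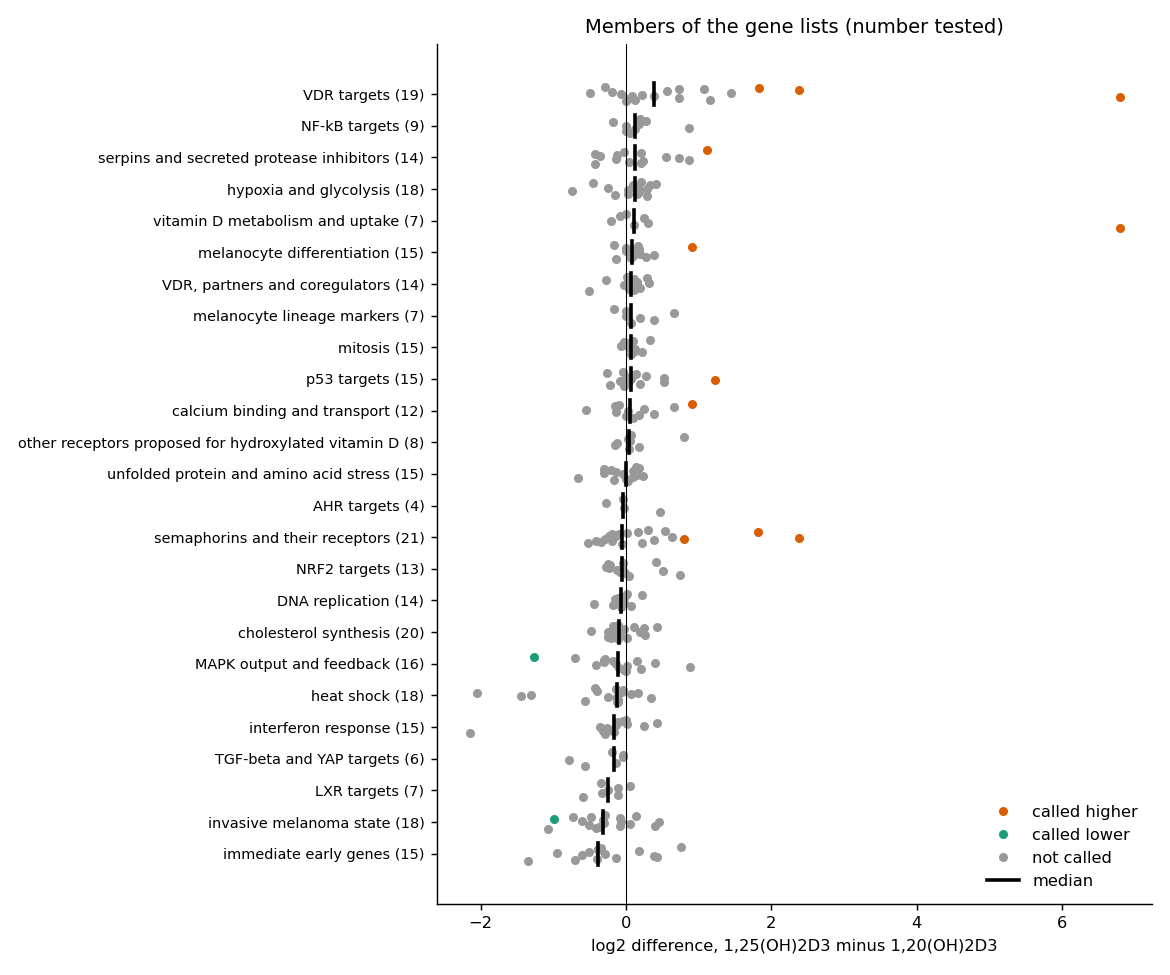
Log2 difference, 1,25(OH)2D3 minus 1,20(OH)2D3, of each tested member of the gene lists with 4 or more tested members (number in brackets), in order of the list median (black bar); colored points were called in limma. The VDR targets have the highest median, 0.39, and the immediate early genes the lowest, -0.38, and in both most members are grey. For the immediate early genes the median was 0.02 in VDR-KD and -0.40 in VDR-WT, so it was low in VDR-WT only. For the VDR targets it was 0.35 and 0.50.

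A few heat shock and immediate early genes differed unequally, or in opposite directions, in the genotypes. HSPA6, a chaperone made only under stress, had 0.720 FPKM in VDR-KD cells and 0.176 FPKM in VDR-WT cells with 1,25(OH)2D3, against 0.468 and 6.71 FPKM with 1,20(OH)2D3 and 32.3 and 9.37 FPKM with ethanol. ARC, an immediate early gene, had 0.804 and 0.105 FPKM, against 0.269 and 3.15 FPKM with 1,20(OH)2D3 and 21.9 and 6.07 FPKM with ethanol. The VDR-WT library with 1,20(OH)2D3 was thus the highest of the 4 for both. FOS, a further immediate early gene, was also highest there, at 15.8 FPKM, whereas the other 3 libraries lay between 5.81 and 6.54 FPKM. The part of this library in the differences between the compounds was not tested beyond leaving it out. Of 18 tested heat shock genes and 15 immediate early genes 0 were called in limma, against 0.245% higher and 0.0383% lower over all tested entries. Among the immediate early genes that agreed in sign in both genotypes IER3 had the lowest difference. It had 34.2 and 48.4 FPKM with 1,25(OH)2D3, against 71.2 and 86.1 FPKM with 1,20(OH)2D3 (limma adjusted p = 0.144). HSPA1A, an inducible chaperone, was further apart, with 9.57 and 6.65 FPKM with 1,25(OH)2D3, against 16.6 and 28.7 FPKM with 1,20(OH)2D3, but with a wide interval (log2 difference -1.44, 95% interval -3.30 to 0.42).

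**Figure D5:**
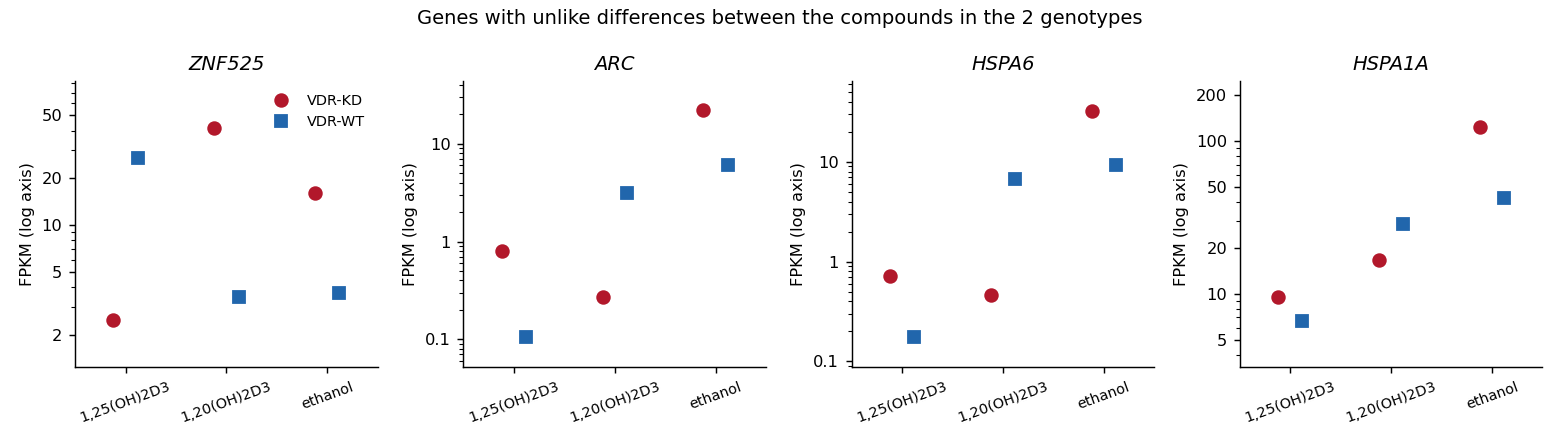
FPKM (log axes) of ZNF525, ARC, HSPA6 and HSPA1A in single libraries with 1,25(OH)2D3, 1,20(OH)2D3 and ethanol; circles are VDR-KD and squares VDR-WT, 1 library each. ARC and HSPA6 were higher in VDR-WT with 1,20(OH)2D3 (3.15 and 6.71 FPKM) than in the other 3 libraries of the compounds, and for ZNF525 the order of the compounds was opposite in the 2 genotypes.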

How the data were processed

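RNA of WM164 cells was sequenced on an Illumina HiSeq instrument, 1 library a condition. According to the submitters' notes the authors aligned reads with STAR 2.7.1a to GRCh38 and used Cufflinks 2.2.1 and Cuffdiff; the sources used here do not give how reads of near-identical or antisense genes were divided. The deposited values are FPKM and were used without further scaling. Entries with a mean of at least 1 FPKM in the 4 libraries compared were tested on log2(FPKM + 0.1) with limma 3.58.1 in R 4.3.3 (eBayes with a trend; treatment and genotype as terms; 8 libraries, no ethanol) and Benjamini-Hochberg adjustment over all 13066, with 0.05 as the threshold. Adding 0.1 makes folds of low genes too small. Fits were tested on simulated data. A member named for a list shares its entry with no other protein-coding gene. Tables used Python 3.11.15, pandas 2.3.3, numpy 2.4.6, scipy 1.17.1 and matplotlib 3.10.9, with gene types from GENCODE 29.

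The compounds, the marker genes, the 30 lists and the tests were chosen with earlier results of these data known. Named by rule were CYP24A1, PRSS33 and PI15, up to 15 called genes with the largest change in each direction (the 5 smallest p-values where fewer than 5 were called), the called members and up to 4 most changed members of each list, and up to 6 genes over 2-fold apart in opposite directions in the genotypes. Genes named outside the rule (the other called genes, and some list members given with their interval or values) were chosen after their values were seen. The 16 alternatives changed the added constant, the filter, the scaling, the libraries in the fit, the genotype term and the variance model.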

Additional observations from a re-analysis of the deposited data

Results flagged for a closer look

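Of the 7 entries with 1 protein-coding name in which the compounds differed over 2-fold in opposite directions in the 2 genotypes, 3 are among the genes named by the rule. Each value sets 1 library against 1, and the difference between genotypes was not tested. ZNF525, a zinc finger gene, had 2.49 FPKM in VDR-KD cells and 26.7 FPKM in VDR-WT cells with 1,25(OH)2D3, against 41.5 and 3.50 FPKM with 1,20(OH)2D3, so that the log2 difference in VDR-KD minus that in VDR-WT was -6.90. ARC had 0.804 and 0.105 FPKM with 1,25(OH)2D3, against 0.269 and 3.15 FPKM with 1,20(OH)2D3, and this value was 5.28. PDGFRB, a growth factor receptor and fibroblast marker, had 1.76 and 0.420 FPKM, against 0.762 and 1.71 FPKM with 1,20(OH)2D3, and this value was 2.91. ARC and PDGFRB are low in these libraries, where the counting error is largest and could not be computed. The entry of ZNF525 also carries another gene name, so its values may not be those of ZNF525 alone.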

How the results depend on the processing

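Which entries passed the threshold depended strongly on the fit. All 37 kept their sign wherever they were tested, but the alternatives reuse the same libraries, so this adds no support. Of 32 entries higher with 1,25(OH)2D3 and 5 lower, the counts were 5 and 0 (23299 entries tested; 1883 at an unadjusted p under 0.05) with no filter on low values, 53 and 14 with a filter of 5 FPKM, 14 and 2 with a filter of 0.5 FPKM over 10 libraries, 49 and 8 with the 4 libraries alone, 36 and 9 with all 10 libraries, 6 and 0 without a genotype term (518 unadjusted), 40 and 8 with robust variances, and 0 and 0 without a trend. With 1 library left out at a time, higher entries numbered 0 to 2 and lower ones 0 to 3. The 5 called with no filter were COX7CP1, CYP24A1, PRSS33, SEMA3B and TIMP3, all among the 37. Adding 1 or 0.5, median centring and quantile normalization gave 39 to 47 calls, 34 to 37 of them shared with the 37. For CYP24A1 the log2 difference lay between 5.49 and 7.19 over all alternatives. The count of 116 entries over 2-fold apart the same way in both genotypes became 60 with 1 added before the logarithm, 700 with no filter, 40 with a filter of 5 FPKM, 198 with a filter of 0.5 FPKM over 10 libraries, 440 at 1.5-fold and 37 at 3-fold. The cause of these shifts was not tested. No paired analysis beyond the genotype term was possible because each condition has 1 library. The unknown depth, 1 dose, 1 time and 2 libraries a compound limit all values.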
